A study of Mus musculus with 6 samples.

Results

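The genes described here encode 10 receptor chains through which blood-forming cells of the myeloid lineages sense cytokines. They are the ligand-binding chains Csf2ra, Il3ra and Il6ra, the signalling chains Csf2rb, Csf2rb2 and Il6st, the self-pairing receptor Csf3r, the receptor tyrosine kinases Csf1r and Flt3, and the interferon-gamma receptor chain Ifngr1. Members were taken by gene symbol, as 10 of 18193 genes named on the array: 19 of the 45037 probe sets on the Affymetrix Mouse Genome 430 2.0 array matched, of which 18 carried the symbol of 1 member and 1 carried both Csf2rb2 and Csf2rb. All 19 passed a filter on low values that 29783 probe sets passed. RNA came from granulocyte/macrophage progenitors (GMPs), the marrow precursors of granulocytes and monocytes. They had been sorted for Kit, CD34 and high Fc-gamma receptor II/III on the surface, and against lineage markers, Sca1 and IL-7R. The 3 genotypes had 2 arrays each, all from mice of strain BL6. IRF4/8DKO mice, which lack the transcription factors IRF4 and IRF8, were a 16-week-old male (replicate 1) and a 16-week-old female (replicate 2). IRF8KO mice were a 12-week-old female (replicate 1) and a 22-week-old male (replicate 2). Wild-type (WT) mice were a 12-week-old male (replicate 1) and a 19-week-old female (replicate 2). The labels say nothing on how the alleles were made.

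Myeloid cytokine receptors carry signals for survival, division and maturation. Receptors for GM-CSF and IL-3 each join a private alpha chain, which binds the ligand, to a shared beta chain, which signals through the kinase JAK2 and the transcription factor STAT5. In the mouse a second beta chain, encoded by Csf2rb2, works with the IL-3 alpha chain only. IL-6 binds Il6ra, and the complex signals through gp130, the product of Il6st, to STAT3. Csf3r pairs with itself to bind G-CSF, the main cytokine of neutrophil production. Csf1r and Flt3 are tyrosine kinases for M-CSF and for FLT3 ligand, and are known from monocytes and macrophages and from early and dendritic cell progenitors. IRF8 is known for steering these progenitors toward monocytes and dendritic cells and away from neutrophils.

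Before the receptors are compared, the arrays need a short account. Replicates correlated at 0.952 in IRF4/8DKO, 0.912 in IRF8KO and 0.968 in WT (Pearson's r of log2 values across the kept probe sets, a description over genes). The IRF8KO pair stood furthest apart, with 7160 probe sets over 2-fold different, against 4230 in the IRF4/8DKO pair and 1863 in the WT pair. Of the genes of the sort gate, Kit overlapped between genotypes, at 2426 and 1998 in IRF4/8DKO, 1824 and 2328 in IRF8KO, and 2170 and 1680 in WT, and Il7r lay between 4.31 and 27.1 on all arrays. Cd34, which the gate selects for, had a fold of 0.355 in IRF4/8DKO and 0.351 in IRF8KO against WT, and Fcgr3 a fold of 3.26 in IRF4/8DKO and 3.45 in IRF8KO, none past the adjusted threshold of limma. Neither Irf8 probe set was lower in the knockout arrays than in WT. The brighter read 2611 and 4778 in IRF4/8DKO, 3811 and 2602 in IRF8KO, and 2588 and 3052 in WT. The other read 934 and 1900 in IRF4/8DKO, 1333 and 1131 in IRF8KO, and 507 and 704 in WT, so it was above WT on every knockout array. Irf4 was dim on all arrays: 1 probe set read 66.0 and 54.6 in IRF4/8DKO, 13.8 and 7.66 in IRF8KO, and 32.1 and 23.4 in WT, highest in the genotype labelled as lacking it, and the other overlapped between IRF4/8DKO and WT. These values do not bear out the labels, and the sources do not say whether the probes lie inside the deleted sequences. Genotype names throughout are those of the labels, and every direction given between genotypes rests on them. Arrays carry no read counts, and 2 arrays per genotype limit the precision. Each array is labelled as 1 mouse, and p-values measure only the spread between these arrays.

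Most of the receptors read higher in both IRF8-deficient genotypes than in WT, but none passed the test that covers all probe sets. In IRF4/8DKO against WT, the 19 member probe sets had a median log2 fold change of 1.01 (range 0.15 to 2.18), beside -0.04 over all kept probe sets. In IRF8KO against WT their median was 0.85 (range -0.30 to 2.12), beside -0.06 over all. Limma with Benjamini-Hochberg adjustment called 0 members at an adjusted p of 0.05 in IRF4/8DKO against WT (0.299% of all probe sets were called) and 0 in IRF8KO against WT (0.0302%). At an unadjusted p of 0.05, 11 of 19 were higher in IRF4/8DKO and 7 of 19 in IRF8KO, while 3.44% and 4.93% of all probe sets were higher at that level. At the same level 0 members were lower in either comparison (5.61% and 8.53% of all). Both IRF4/8DKO arrays lay above both WT arrays for 16 of 19 probe sets (18.3% of all), and both IRF8KO arrays for 13 of 19 (19.8%). Both arrays lay below WT for 0 of 19 in IRF4/8DKO (25.3% of all) and for 1 of 19 in IRF8KO (25.9%), a dim Il6ra probe set. Log2 fold changes were above 0 for 19 of 19 in IRF4/8DKO (46.9% of all) and 16 of 19 in IRF8KO (46.1%). Taking 1 probe set per gene, the one with the highest mean, 8 of 10 genes were above WT without overlap in each comparison, and the 2 that overlapped were Flt3 and Il6ra. The comparisons with WT use the same WT arrays and are not independent of each other. The members were chosen with earlier results of these data known, so setting them beside all probe sets is a description and no independent test. In bulk RNA, fewer cells of a type and less RNA per cell cannot be told apart.

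**Figure D1:**
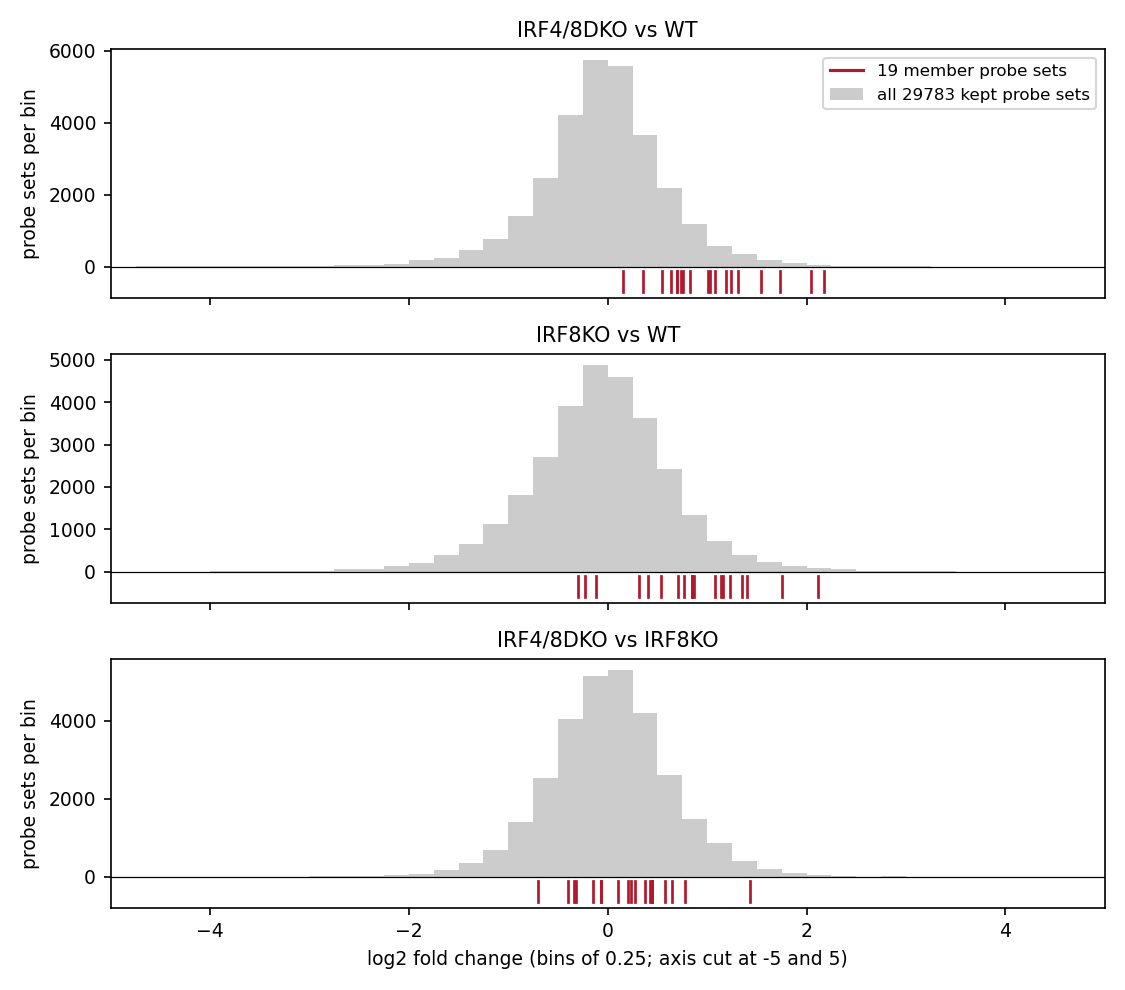
Log2 fold changes (x axis) of all 29783 kept probe sets (grey bars, number per bin, axis limited to -5 and 5) and of the 19 member probe sets (red ticks) for the 3 pairwise comparisons of genotypes. Member medians were 1.01 in IRF4/8DKO against WT, 0.85 in IRF8KO against WT and 0.23 in IRF4/8DKO against IRF8KO.

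The 250 bases before the transcription start of 8 members (RefSeq, GRCm38.p6) were searched on both strands for short motifs of transcription factors that act on myeloid genes. The motif cores searched were GAGGAA (PU.1), GGAA and GAAA with 2 bases between them (a joint ETS and IRF site), GAAA and GAAA with 2 bases between them (an IRF repeat), TGTGGT (RUNX) and TTGCNNAA (C/EBP), which 23.25%, 2.30%, 2.98%, 14.05% and 9.56% of 32851 windows held. Windows of 4 members held GAGGAA (Csf2ra, Csf2rb2, Csf3r and Il6ra), Il6st held the joint ETS and IRF site, Il3ra held the C/EBP core, and none held the IRF repeat or the RUNX core. The windows of Csf2ra, Il3ra, Il6st and Csf3r are shown because they hold an example of each motif found, in lower case with matches in capitals. They lie at chr19:61228419-61228668 (minus strand) for Csf2ra, chr14:14346245-14346494 (plus) for Il3ra, chr13:112463820-112464069 (plus) for Il6st and chr4:126024409-126024658 (plus) for Csf3r.
Csf2ra: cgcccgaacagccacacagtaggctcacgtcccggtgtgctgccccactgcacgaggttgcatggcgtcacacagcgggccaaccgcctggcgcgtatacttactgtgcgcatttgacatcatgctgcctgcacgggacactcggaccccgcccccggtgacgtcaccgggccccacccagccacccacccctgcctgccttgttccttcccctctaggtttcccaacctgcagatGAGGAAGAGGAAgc
Il3ra: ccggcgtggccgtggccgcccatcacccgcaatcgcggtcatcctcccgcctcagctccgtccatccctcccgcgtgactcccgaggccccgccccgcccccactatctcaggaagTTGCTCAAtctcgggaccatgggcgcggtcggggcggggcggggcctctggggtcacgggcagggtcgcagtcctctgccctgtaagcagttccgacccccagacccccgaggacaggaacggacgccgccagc
Il6st: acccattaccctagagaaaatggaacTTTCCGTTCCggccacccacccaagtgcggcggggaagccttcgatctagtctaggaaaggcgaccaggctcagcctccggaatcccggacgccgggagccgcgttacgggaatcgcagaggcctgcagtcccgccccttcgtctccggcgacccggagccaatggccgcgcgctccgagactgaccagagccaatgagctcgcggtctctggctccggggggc
Csf3r: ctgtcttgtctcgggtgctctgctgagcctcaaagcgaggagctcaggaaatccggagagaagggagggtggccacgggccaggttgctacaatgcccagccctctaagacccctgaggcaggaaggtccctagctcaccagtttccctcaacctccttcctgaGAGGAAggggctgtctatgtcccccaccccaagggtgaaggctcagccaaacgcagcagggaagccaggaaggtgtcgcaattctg
In Csf2ra the matches adjoin each other, close to the transcription start. A match describes these letters only.

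The alpha chains of the GM-CSF and IL-3 receptors varied widely between arrays, with a highest value 5.54 times the lowest for Csf2ra and 14.8 times for Il3ra. Csf2ra, which binds GM-CSF, read 1396 and 4664 in IRF4/8DKO, 1471 and 2622 in IRF8KO, and 906 and 841 in WT. Every knockout array lay above both WT arrays, and replicate 2 was the higher in each knockout genotype. The fold change was 2.90 (95% interval 1.25 to 6.73) in IRF4/8DKO against WT, a log2 value of 1.54 ± 0.54 (SE; limma adjusted p = 0.404). In IRF8KO against WT it was 1.16 ± 0.54 on the log2 scale (limma adjusted p = 0.388). Without replicate 2 of the knockout, the log2 fold change was 0.67 in IRF4/8DKO and 0.75 in IRF8KO. These intervals are not adjusted for the number of probe sets, and folds are taken on log2(intensity + 10.5), which understates the change of dim probe sets. The dimmer Csf2ra probe set read 609 and 331 in IRF4/8DKO, 730 and 742 in IRF8KO, and 282 and 264 in WT. There the order of the knockouts was the other way round, with both IRF8KO arrays above both IRF4/8DKO arrays.

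Il3ra, which binds IL-3, read 462 and 1828 in IRF4/8DKO, 388 and 2406 in IRF8KO, and 283 and 162.5 in WT. All knockout arrays were above both WT arrays, and replicate 2 of each knockout genotype stood far above replicate 1. The log2 fold change was 2.05 ± 0.87 in IRF4/8DKO against WT (SE; limma adjusted p = 0.526) and 2.12 ± 0.87 in IRF8KO against WT (limma adjusted p = 0.341). A single array decided the size of both. Without replicate 2, the log2 fold change was 1.07 in IRF4/8DKO and 0.82 in IRF8KO. Without replicate 1, it was 3.03 in IRF4/8DKO and 3.42 in IRF8KO, the IRF8KO value at a limma adjusted p of 0.0311, with the lone IRF8KO array assumed to vary like the other genotypes. The mean of all 4 IRF8-deficient arrays lay 2.09 ± 0.76 above WT, and without IRF8KO replicate 1 this was 2.74 (limma adjusted p = 0.0261).

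Csf2rb and Csf2rb2 encode the beta chains and are near-identical neighbouring genes in the mouse, so their probe sets may share signal and the split between them is uncertain. Csf2rb read 2652 and 2959 in IRF4/8DKO, 2573 and 2311 in IRF8KO, and 1480 and 1891 in WT. At this probe set the groups did not overlap, and both IRF4/8DKO arrays were also above both IRF8KO arrays. The difference from WT was among the smaller ones, 0.74 ± 0.27 in IRF4/8DKO (log2, SE; limma adjusted p = 0.427) and 0.54 ± 0.27 in IRF8KO (limma adjusted p = 0.418). The other Csf2rb probe set read 903 and 1764 in IRF4/8DKO, 544 and 977.5 in IRF8KO, and 471 and 635 in WT. There IRF8KO overlapped both WT (log2 fold change 0.41 ± 0.47, limma adjusted p = 0.747) and IRF4/8DKO, while both IRF4/8DKO arrays were above WT. Csf2rb2 read 198 and 326 in IRF4/8DKO, 243 and 191 in IRF8KO, and 87.2 and 150 in WT. It was above WT on every knockout array, by 1.08 ± 0.47 in IRF4/8DKO (log2, SE; limma adjusted p = 0.546) and 0.85 ± 0.47 in IRF8KO (limma adjusted p = 0.472), or 0.49 without WT replicate 1. The probe set annotated to both genes read 271 and 718 in IRF4/8DKO, 541 and 636 in IRF8KO, and 259 and 231 in WT. It too was above WT on every knockout array.

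Of the IL-6 receptor chains, the brightest probe set of Il6st did not overlap WT and that of Il6ra did. A difference between the 2 genes was not tested. Il6st, the gp130 signalling chain shared by the IL-6 family, read 830 and 1005 in IRF4/8DKO, 869 and 1541 in IRF8KO, and 429 and 468 in WT. All knockout arrays were above both WT arrays, with IRF8KO replicate 2 the highest. The fold change was 2.02 (95% interval 1.07 to 3.78) in IRF4/8DKO (limma adjusted p = 0.486) and 2.55 (1.36 to 4.78) in IRF8KO (limma adjusted p = 0.21). Another Il6st probe set read 701 and 1125 in IRF4/8DKO, 995 and 686 in IRF8KO, and 317 and 430 in WT, again without overlap. The remaining Il6st probe sets were dimmer and overlapped WT in IRF8KO, at log2 fold changes of -0.12 ± 0.46 and 0.31 ± 0.48. Il6ra, which binds IL-6, read 506 and 870 in IRF4/8DKO, 592 and 820.5 in IRF8KO, and 612 and 290 in WT. Here WT replicate 1 lay within the range of the knockout arrays. Without WT replicate 2, the log2 fold change of Il6ra was 0.11 in IRF4/8DKO, where all arrays gave 0.64, and 0.18 in IRF8KO, where all gave 0.71.

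**Figure D2:**
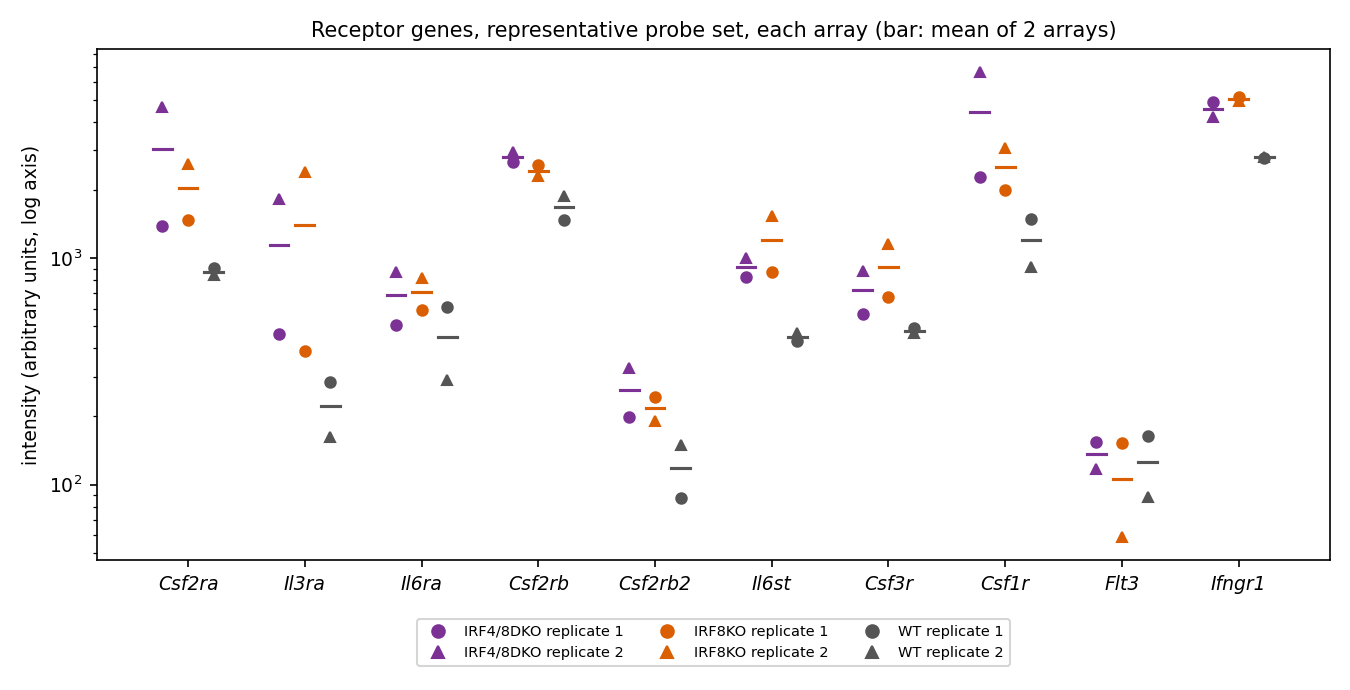
Intensity (log axis) of the representative probe set of each of the 10 genes on each array, with IRF4/8DKO left, IRF8KO in the middle and WT right, and a bar at the mean of 2 arrays. Il3ra shows a wide gap between replicates (462 and 1828 in IRF4/8DKO, 388 and 2406 in IRF8KO) and Ifngr1 a narrow one (4896 and 4226 in IRF4/8DKO, 5175 and 4933 in IRF8KO), and levels of different genes cannot be set against each other.

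Csf3r, the G-CSF receptor, read 566 and 879 in IRF4/8DKO, 673 and 1153 in IRF8KO, and 491 and 467 in WT. The knockout arrays were above WT without overlap, with IRF4/8DKO replicate 1 the closest to WT. The log2 fold change was 0.55 ± 0.43 in IRF4/8DKO (SE; limma adjusted p = 0.792) and 0.87 ± 0.43 in IRF8KO (limma adjusted p = 0.417). Both values shrank without replicate 2 of the knockout, to 0.24 in IRF4/8DKO and 0.48 in IRF8KO.

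Csf1r, the M-CSF receptor of monocytes and macrophages, read 2276 and 6625 in IRF4/8DKO, 2008 and 3061 in IRF8KO, and 1490 and 915 in WT. IRF4/8DKO replicate 2 was the highest array by a wide margin, and all knockout arrays were above WT. The fold change was 3.31 (95% interval 1.52 to 7.18) in IRF4/8DKO (limma adjusted p = 0.28) and 2.11 (0.973 to 4.59) in IRF8KO (limma adjusted p = 0.384). Without IRF4/8DKO replicate 2, the log2 fold change in IRF4/8DKO was 0.96, against 1.73 ± 0.49 (SE) with both arrays. A further Csf1r probe set read 681 and 3146 in IRF4/8DKO, 913 and 1284 in IRF8KO, and 346 and 286 in WT. IRF4/8DKO replicate 2 was again the highest array, and the log2 fold change was 2.18 ± 0.64 (SE) in IRF4/8DKO, the highest of the 19 in that comparison. The remaining Csf1r probe set read 430 and 1050 in IRF4/8DKO, 844 and 367 in IRF8KO, and 356.5 and 294 in WT. It was also above WT on every knockout array, but IRF8KO replicate 2 lay close to WT replicate 1.

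Flt3, the receptor tyrosine kinase of early and dendritic progenitors, was, with Il6ra, 1 of the 2 genes whose knockout arrays overlapped WT. It read 155 and 118 in IRF4/8DKO, 153 and 58.6 in IRF8KO, and 164 and 87.7 in WT. The arrays of all 3 genotypes overlapped. Its fold change was 1.11 (95% interval 0.476 to 2.59) in IRF4/8DKO and 0.811 (0.347 to 1.89) in IRF8KO, so these arrays leave room for a difference in either direction.

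Ifngr1, the ligand-binding chain of the interferon-gamma receptor, had the smallest standard error of the 10 genes. It read 4896 and 4226 in IRF4/8DKO, 5175 and 4933 in IRF8KO, and 2773 and 2815 in WT. The knockout arrays stood clear of WT, and replicates lay close together in every genotype. The fold change was 1.63 (95% interval 1.18 to 2.24) in IRF4/8DKO (limma adjusted p = 0.292) and 1.81 (1.31 to 2.49) in IRF8KO (limma adjusted p = 0.143). Leaving out any 1 array kept the log2 fold change between 0.60 and 0.81 in IRF4/8DKO and between 0.82 and 0.89 in IRF8KO. Over the 4 IRF8-deficient arrays, which are the same arrays again, it was 0.78 ± 0.18 (SE; limma adjusted p = 0.108). In that pooled comparison 0 members passed the adjusted threshold (0.601% of all probe sets did) and 11 of 19 were higher at an unadjusted p of 0.05, beside 4.23% of all, with 0 lower (7.35%). There 13 of 19 lay above both WT arrays on all 4 arrays (8.51% of all) and 0 below (12.5%), and 18 of 19 had a log2 fold change above 0 (46.2%).

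**Figure D3:**
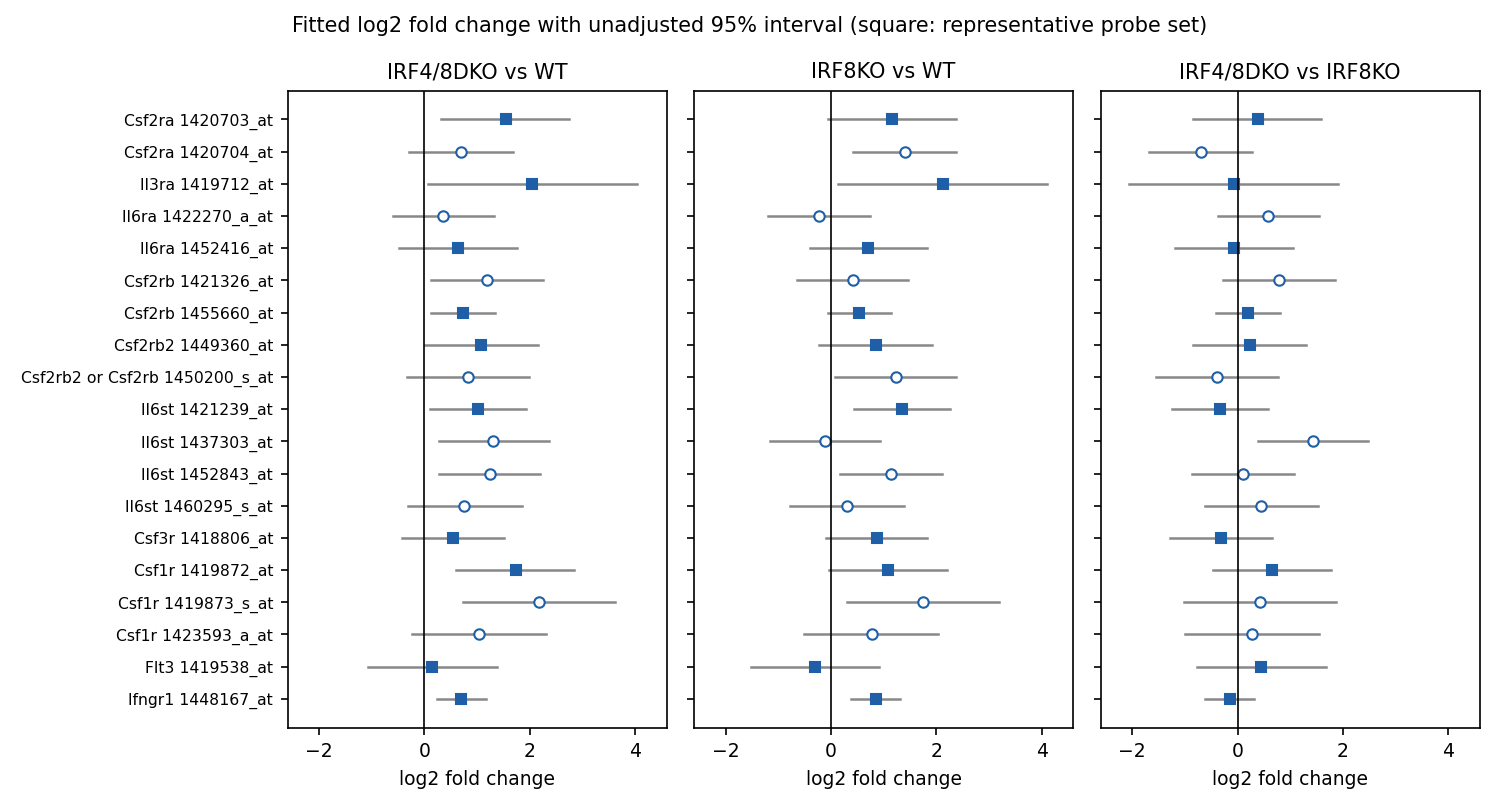
Log2 fold changes with unadjusted 95% intervals for all 19 probe sets (filled squares, the 1 probe set that represents each gene; open circles, the others) in IRF4/8DKO against WT, IRF8KO against WT and IRF4/8DKO against IRF8KO. The interval of Ifngr1 against WT is narrow and above 0 (fold 1.18 to 2.24 in IRF4/8DKO, 1.31 to 2.49 in IRF8KO), and that of Il3ra is wide. Those of Flt3, Il6ra and Csf3r include 0 in every panel, as do those of a dimmer Csf1r and a dimmer Il6st probe set.

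**Figure D4:**
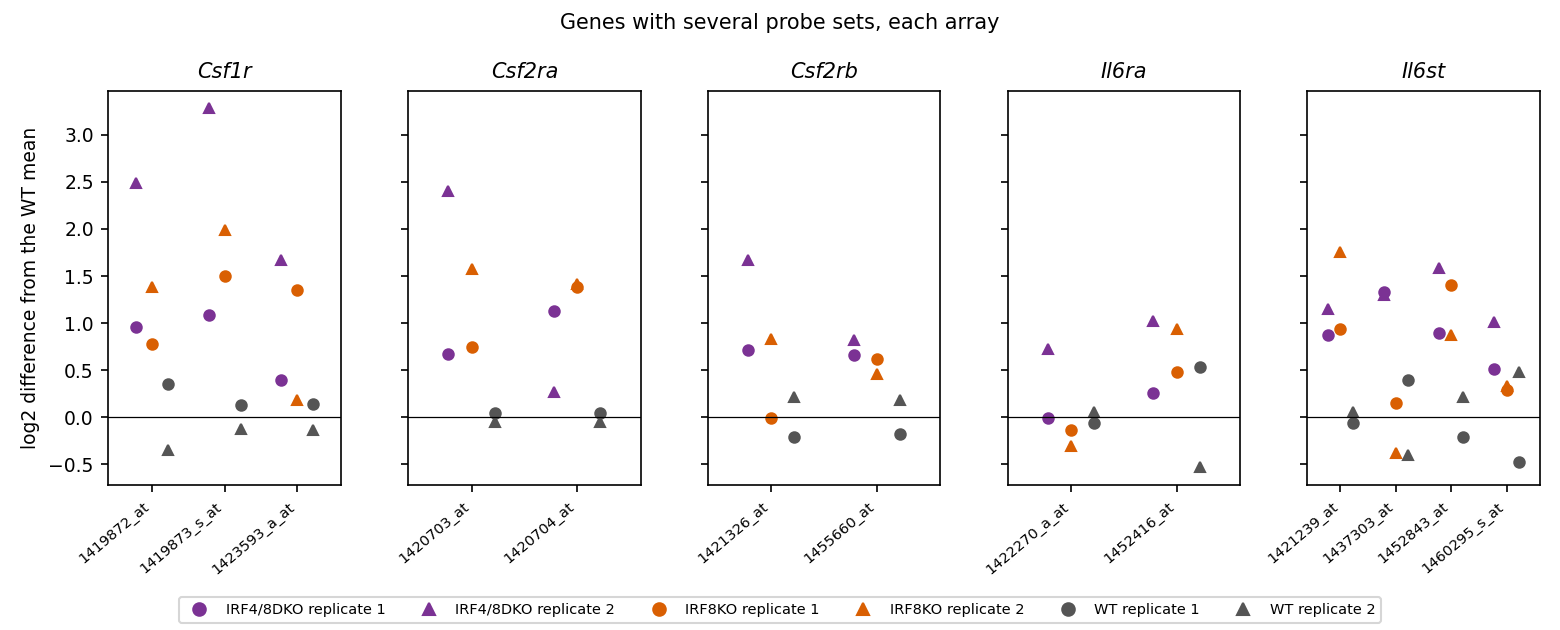
Each array as a log2 difference from the WT mean of the same probe set, for the 5 genes with several probe sets of their own (colours, genotypes; circles, replicate 1; triangles, replicate 2). IRF4/8DKO replicate 2 is the highest array for every Csf1r probe set, while the Csf2ra probe sets order the knockout arrays differently (1396 and 4664 in IRF4/8DKO and 1471 and 2622 in IRF8KO for one, 609 and 331 in IRF4/8DKO and 730 and 742 in IRF8KO for the other).

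Adding the loss of IRF4 to that of IRF8 made no difference that passed the test. In IRF4/8DKO against IRF8KO the 19 member probe sets had a median log2 fold change of 0.23 (range -0.70 to 1.43), beside 0.02 over all probe sets. Limma called 0 members and 0 of all probe sets (0%), while 2538 of all probe sets (8.52%) had an unadjusted p under 0.05. At that level 1 member, a dim Il6st probe set, was higher (4.82% of all) and 0 were lower (3.7%). Log2 fold changes were above 0 for 12 of 19 (51.2% of all). That probe set read 264 and 257 in IRF4/8DKO and 110 and 73.0 in IRF8KO, a fold of 2.70 (95% interval 1.31 to 5.56; limma adjusted p = 0.539). Another dim Il6st probe set was also higher without overlap, at 219 and 314 in IRF4/8DKO and 186 and 191 in IRF8KO (limma adjusted p = 0.803), and the 2 brightest Il6st probe sets overlapped between these genotypes. Without overlap, 4 probe sets were higher (19.3% of all) and 2 lower (17.3%) in IRF4/8DKO than in IRF8KO. For Ifngr1 the interval of the fold was 0.653 to 1.24, and for Il3ra it was 0.240 to 3.76, so a difference between the knockouts was not bounded closely for Il3ra.

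By the median over the list, the arrays of 1 genotype stood furthest apart in IRF4/8DKO. The median log2 difference of the 19 probe sets from the WT mean was 0.71 and 1.30 on the IRF4/8DKO arrays, 0.78 and 0.87 on the IRF8KO arrays, and 0.05 and -0.05 on the WT arrays. IRF4/8DKO replicate 2 was the highest array for 12 of the 19 probe sets and IRF8KO replicate 2 for 4. The lowest array was WT replicate 2 for 10 and WT replicate 1 for 7. Sex also differs between the 2 arrays of each genotype, and age does in IRF8KO and WT. Both IRF4/8DKO mice were 16 weeks old. Between male mice, the log2 difference of Csf1r was 0.61 in IRF4/8DKO and 1.03 in IRF8KO against WT. Between female mice it was 2.84 in IRF4/8DKO and 1.13 in IRF8KO. With 1 array per sex and genotype these values have no error.

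Markers of more mature and of other cells also differed between these genotypes. The summed intensity of 10 neutrophil maturation genes (Ltf, Camp, Ngp and others) was 29070 and 56980 in IRF4/8DKO, 34110 and 59650 in IRF8KO, and 13190 and 33690 in WT. The IRF4/8DKO sums overlapped those of WT. All 10 genes had log2 fold changes above 0 in both knockouts (46.9% of all probe sets in IRF4/8DKO and 46.1% in IRF8KO). Limma called 1 of them, Mmp8, higher in IRF4/8DKO (0.299% of all probe sets were called in either direction) and 0 in IRF8KO (0.0302%). Only 3 of 10 lay above WT without overlap in each knockout (18.3% of all probe sets in IRF4/8DKO and 19.8% in IRF8KO), and the others overlapped WT. The summed intensity of 7 monocyte genes was 16980 and 18380 in IRF4/8DKO, 14370 and 15210 in IRF8KO, and 7351 and 8314 in WT. Of these genes, 6 passed the filter. Limma called 4 of the 6 (Ccr2, Adgre1, Mpeg1 and Cd14) higher in IRF4/8DKO and 0 in IRF8KO, beside the same shares of all probe sets. F13a1 made up most of the monocyte sum on every array, at 10020 and 9610 in IRF4/8DKO, 8963 and 8891 in IRF8KO, and 6079 and 6888 in WT. On the same list Cd14 had a log2 fold change of 0.23 in IRF8KO, and Fcgr1 of -0.39 in IRF4/8DKO and -1.14 in IRF8KO. The sum of 7 eosinophil, basophil and mast cell genes was 479 and 567 in IRF4/8DKO, 4047 and 1724 in IRF8KO, and 12710 and 7793 in WT. Of these 7, 4 were called lower in IRF4/8DKO (0.299% of all probe sets called) and 0 in IRF8KO (0.0302%). Erythroid genes summed to 233 and 144.5 in IRF4/8DKO, 888 and 234 in IRF8KO, and 6137 and 2581 in WT. Megakaryocyte genes overlapped between IRF8KO and WT (87.2 and 121 in IRF4/8DKO, 993 and 477 in IRF8KO, 3246 and 830 in WT), and stem cell genes were below WT on every knockout array (419 and 172 in IRF4/8DKO, 330 and 277 in IRF8KO, 3445 and 1692 in WT). Sums for dendritic, B and T or NK cell genes stayed between 76.7 and 153 on every array. Only 3 of 5 dendritic, 2 of 4 B cell and 2 of 5 T or NK cell genes passed the filter on low values. Among the genes of the sort gate, Cd34 read 590 and 509 in IRF4/8DKO, 440 and 669 in IRF8KO, and 1747 and 1401 in WT. Fcgr3 read 2516 and 5863 in IRF4/8DKO, 2618 and 6315 in IRF8KO, and 1090 and 1259 in WT. Replicate 2 was the higher in each knockout, as for Il3ra and the brighter Csf2ra probe set. The dimmer Csf2ra probe set was lower in replicate 2 of IRF4/8DKO (609 and 331) and nearly level in IRF8KO (730 and 742). The part of these cells in the receptor values was not tested.

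**Figure D5:**
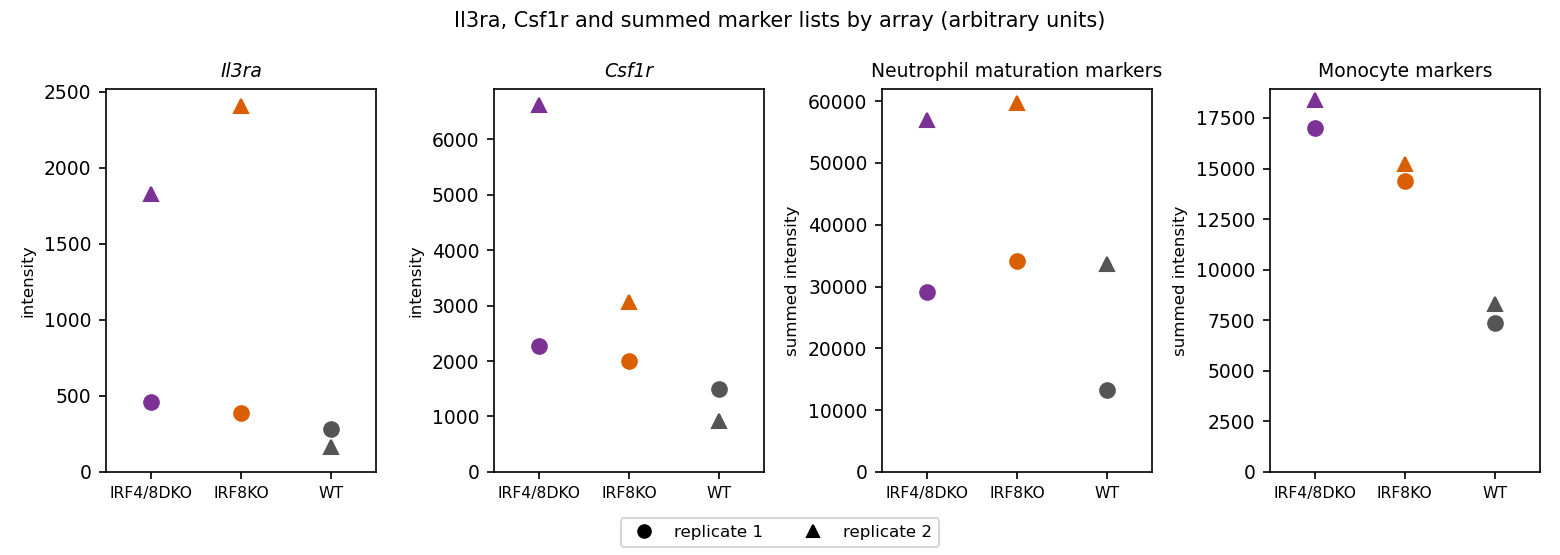
Intensity of Il3ra and Csf1r and summed intensity of the neutrophil maturation and monocyte markers on each array (linear axes from 0; circles, replicate 1; triangles, replicate 2). Replicate 2 is the higher for Il3ra and for the neutrophil sum in both knockouts (56980 in IRF4/8DKO and 59650 in IRF8KO for the sum), in WT replicate 2 is the higher for the sum (33690) and the lower for Il3ra (162.5), and monocyte sums are 16980 and 18380 in IRF4/8DKO, 14370 and 15210 in IRF8KO, and 7351 and 8314 in WT.

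The wider pathway was described through 7 lists of genes, of which 66 genes passed the filter. Limma called 0 of 66 in each comparison. At an unadjusted p of 0.05, 3 were higher and 4 lower in IRF4/8DKO against WT (3.44% and 5.61% of all probe sets). In IRF8KO against WT, 5 were higher and 4 lower (4.93% and 8.53% of all). These counts are near the shares over all probe sets. The median log2 fold change of the 66 genes was 0.13 in IRF4/8DKO and 0.09 in IRF8KO, below the member medians. Of the ligands, 3 of 9 passed the filter, with medians of 0.04 in IRF4/8DKO and 0.38 in IRF8KO. Csf1, which encodes M-CSF, read 79.0 and 82.0 in IRF4/8DKO, 158 and 39.3 in IRF8KO, and 174 and 184 in WT, so both knockouts lay below WT (limma adjusted p = 0.663 and 0.465).

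The 14 other receptors that passed had median log2 fold changes of 0.25 in IRF4/8DKO and 0.31 in IRF8KO. Ifngr2, the partner chain of Ifngr1, read 732 and 955 in IRF4/8DKO, 939 and 468 in IRF8KO, and 344 and 325 in WT. It was above WT on every knockout array (limma adjusted p = 0.397 in IRF4/8DKO and 0.387 in IRF8KO). Epor, the erythropoietin receptor, was below WT on every knockout array, with log2 fold changes of -1.46 ± 0.44 in IRF4/8DKO (SE; limma adjusted p = 0.317) and -2.05 ± 0.44 in IRF8KO (limma adjusted p = 0.116).

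Downstream of the receptors, 0 of 10 JAK and STAT genes had an unadjusted p under 0.05 in any pairwise comparison of genotypes. Of all probe sets, 3.44% were higher and 5.61% lower at that level in IRF4/8DKO against WT. The shares were 4.93% and 8.53% in IRF8KO against WT, and 8.52% in either direction between the knockouts. With 10 genes, 0 is near these shares. The median log2 fold change of the JAK and STAT genes was 0.16 in IRF4/8DKO and 0.06 in IRF8KO against WT. Among 10 adaptors and kinases the medians were 0.29 and 0.06. The adaptor Grb2 read 1325 and 2018 in IRF4/8DKO and 846 and 710 in IRF8KO, without overlap, at a log2 fold change of 1.07 ± 0.36 (SE; limma adjusted p = 0.548). The 12 inhibitors had medians of 0.06 in IRF4/8DKO and -0.10 in IRF8KO. Socs3, an inhibitor of gp130 and Csf3r signalling, read 35.2 and 18.3 in IRF4/8DKO, 18.7 and 3.36 in IRF8KO, and 53.4 and 65.3 in WT. All of its knockout values were below WT (limma adjusted p = 0.631 in IRF4/8DKO and 0.173 in IRF8KO).

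Of 10 genes known to respond to these receptors, with medians of -0.21 in IRF4/8DKO and 0.01 in IRF8KO, Cebpb read 3948 and 3273 in IRF4/8DKO, 3455 and 4346 in IRF8KO, and 1798 and 2343 in WT. Irf1, an interferon-induced transcription factor, read 1885 and 2177 in IRF4/8DKO, 1465 and 2540 in IRF8KO, and 1137 and 948 in WT. Both genes were above WT on every knockout array, and neither passed the adjusted threshold. The 7 regulators of receptor genes had medians of -0.03 in IRF4/8DKO and 0.06 in IRF8KO. Meis1, a stem cell transcription factor, read 26.1 and 26.6 in IRF4/8DKO, 120 and 11.4 in IRF8KO, and 797 and 347 in WT (limma adjusted p = 0.113 in IRF4/8DKO and 0.139 in IRF8KO). Spi1, which encodes PU.1, read 911 and 3301 in IRF4/8DKO, 1824 and 2797 in IRF8KO, and 949 and 798 in WT. Its IRF4/8DKO arrays overlapped WT and its IRF8KO arrays did not.

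Across the 6 arrays, the genes most like Il3ra were Gm8273 (Pearson's r = 0.996) and Tmem106c (0.995), those most like Csf1r were Rab43 (0.988) and Ddah2 (0.984), and those most like Csf2ra were Dpp7 (0.997) and Emc3 (0.994). The search covered 8267 genes, with 6 points per correlation that share genotype and array, and 114 genes reached an r above 0.95 with Il3ra alone.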

How the data were processed

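The authors deposited 1 intensity per probe set and array, which dChip 1.3 normalized and summarised from perfect-match minus mismatch signals, per the design text. The sources used here name neither the way of normalizing nor its baseline. All values on the 6 arrays were above 0. From these, log2(intensity + 10.5) was taken, the added value being the 25th percentile of all intensities, and probe sets above the 40th percentile of their array on at least 2 arrays were kept (29783, with 15254 left out). Limma 3.58.1 in R 4.3.3 fitted all 3 genotypes together with a variance trend (3 residual degrees of freedom, 5.84 prior), and p-values were adjusted by Benjamini-Hochberg over all kept probe sets. The fit was also run on simulated data as a check of the code, and no power for these arrays is taken from it. Symbols came from the platform annotation, brought up to date through RefSeq: 34945 probe sets had 1 symbol, 932 several and 9160 none. The text names all 10 members, and from each pathway list any gene past the threshold, otherwise some of the up to 3 genes per comparison with the lowest adjusted p. Each gene is represented by its kept probe set of highest mean. The members and gene lists were chosen with earlier results of these data known. Alternatives covered the added value, the filter, the scaling, the variance model, sex, age, replicate number and each array left out.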

Additional observations from a re-analysis of the deposited data

Results flagged for a closer look

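Il3ra differed in opposite directions between the sexes in IRF4/8DKO against IRF8KO: the log2 difference was -2.35 between the male arrays and 2.21 between the female arrays. Replicate 2 was the higher Il3ra array in both knockouts, at 2406 in IRF8KO, where it was the male, and 1828 in IRF4/8DKO, where it was the female. The opposite signs follow from this, so these values cannot separate sex from replicate. Against WT, Il3ra was higher in both knockouts among males and among females. With 1 array per sex and genotype a difference between the sexes was not tested, and the mice also differed in age.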

How the results depend on the processing

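The count of members past an adjusted p of 0.05 was 0 under each alternative except leaving out IRF8KO replicate 1, which gave 1 (Il3ra) in IRF8KO against WT and in the pooled comparison, so these counts ranged from 0 to 1. Over all probe sets, calls moved from 89 to between 0 and 484 in IRF4/8DKO against WT, from 9 to between 0 and 1090 in IRF8KO against WT, from 0 to between 0 and 200 in IRF4/8DKO against IRF8KO, and from 179 to between 0 and 1020 in the pooled comparison. Deviations of same-numbered arrays from their genotype means correlated weakly (r = 0.188 in IRF4/8DKO and WT, 0.0411 in IRF8KO and WT, and 0.211 in IRF4/8DKO and IRF8KO). Such values cannot decide whether the numbers pair the arrays. With the replicate block 0 members were called, and 216, 209, 1 and 391 probe sets in IRF4/8DKO against WT, IRF8KO against WT, IRF4/8DKO against IRF8KO and the pooled comparison. Counts of members higher without overlap, chosen after seeing the data, ranged from 3 to 13 in IRF4/8DKO against IRF8KO across the alternatives, against 4 in the main fit. They ranged from 16 to 18 in IRF4/8DKO against WT, and from 13 to 15 in IRF8KO against WT and in the pooled comparison. Leaving out an array can only keep or raise such counts, for members and for all probe sets alike. The shares over all probe sets under these settings are not given, so the 13 is no result about the members. Flt3 reversed, ranging from -0.26 to 0.57 in IRF4/8DKO against WT and from -0.92 to 0.32 in IRF8KO against WT with arrays left out. Pooled, Flt3 gave 0.02 with quantile normalization, 0.10 with median centring and 0.05 with age, and from -0.49 to 0.34 with arrays left out. In IRF4/8DKO against IRF8KO, median centring gave 0.01 for Il3ra and 0.01 for Il6ra, age gave 0.07 for Il3ra, and the mean of probe sets gave -0.16 for Csf2ra, 0.26 for Il6ra and 0.41 for Il6st. With arrays left out, values there ranged from -0.49 to 1.24 for Csf2ra, -1.37 to 1.23 for Il3ra, -0.46 to 0.31 for Il6ra, -0.12 to 0.57 for Csf2rb2, -0.75 to 0.07 for Il6st, -0.70 to 0.07 for Csf3r, -0.12 to 1.41 for Csf1r and -0.17 to 1.07 for Flt3. The cause was not tested. Median centring moved the median of all probe sets to 0.18 in IRF4/8DKO and 0.08 in IRF8KO against WT, beside member medians of 1.23 and 0.99.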
